A study of Mus musculus with 2 samples.

Results

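The 10 genes described here encode the MHC class I molecule and the machinery that supplies it with peptides. They are the heavy chains H2-K1, H2-D1 and H2-Q7, the light chain B2m, the peptide transporter subunits Tap1 and Tap2, tapasin (Tapbp) and the immunoproteasome subunits Psmb8, Psmb9 and Psmb10. They were taken by symbol from the 32285 genes of the feature tables, and each symbol occurred there once. No measured value served as a filter, but the list was chosen with earlier results of these data known. All 10 had at least 50 UMIs (unique molecular identifiers, that is, counted transcript molecules) over both libraries, as had 10387 genes in all.

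MHC class I molecules carry peptides from proteins degraded inside the cell to its surface, where cytotoxic T cells and receptors of natural killer cells and myeloid cells read them. The proteasome cuts the peptides, the Tap1 and Tap2 transporter moves them into the endoplasmic reticulum, and tapasin holds the empty heavy chain and B2m at the transporter until a peptide fits. Interferon-gamma induces the subunits Psmb8, Psmb9 and Psmb10, which replace the constitutive catalytic subunits Psmb5, Psmb6 and Psmb7 in newly built proteasomes; myeloid cells and dendritic cells hold many such immunoproteasomes.

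The cells were mouse myeloid-derived suppressor cells, immature myeloid cells that restrain T cells, grown in culture for 4 days with IL-6 and GM-CSF at 40 ng/mL each. One culture was given the vehicle DMSO and the other Selinexor at 50 nM, a small molecule that blocks the nuclear export receptor exportin 1, and both received the same cytokines. Live CD11b+ cells were sorted, pooled under multiplexing tags and captured on the 10x Genomics platform, so cells that lack CD11b were removed by the gate. No mouse strain, sex or age is given in the labels, and each group is 1 library, so every difference below describes these 2 libraries, has no replicate check and carries intervals for counting error only.

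After filtering, 1742 DMSO cells with 14209188 UMIs and 1962 Selinexor cells with 12771314 UMIs were kept, and 0 barcodes occurred in both libraries. The median cell held 7786.5 UMIs in the DMSO library and 3912 in the Selinexor library, and 18.0% and 39.9% of the cells held under 2000 UMIs. All 8, 9 and 12 markers of early, intermediate and late neutrophils and all 11 monocyte markers were detected in both libraries. Of markers of other lineages, the 6 T cell markers summed to 1.20 and 1.57 CPM (UMIs per 1000000 gene UMIs) in DMSO and Selinexor. The 5 NK cell markers summed to 2.04 and 0.63 with Ncr1 and Gzma at 0, and the 5 erythroid markers to 0 and 0.235. The 7 B cell markers summed to 20.6 and 235, and the part of such transcripts in the results below was not tested.

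Of the 10 genes 8 lie on chromosome 17 (GENCODE annotation of mm10, all 10 identifiers matched, all protein-coding). Psmb9 (34181987 to 34187764, minus strand), Tap1 (34187553 to 34197225, plus), Psmb8 (34197721 to 34201454, plus) and Tap2 (34203527 to 34216321, plus) are neighbours, and the spans of Psmb9 and Tap1 overlap head to head by 212 bases. Tapbp (33915899 to 33929292, plus) and H2-K1 (33996017 to 34000347, minus) lie on one side of this block, and H2-D1 (35262730 to 35267499, plus) and H2-Q7 (35439155 to 35443773, plus) on the other. B2m lies on chromosome 2 (122147686 to 122153083, plus) and Psmb10 on chromosome 8 (105935735 to 105938444, minus). No source used here tells whether strand was used in the counting, so reads from overlapping genes may not have been told apart.

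The 3 heavy chains share a start-site layout of the exact strings marked below, which B2m holds in part. The windows of H2-K1, H2-Q7 and B2m are shown for this reason, and H2-D1 follows in the shorter stretch that the heavy chains share. RefSeq windows (GRCm38.p6) of 250 bases before the start were found for 9 of the 10 genes; Tap2 had none. Capitals mark, on either strand, the NF-kB motif GGGATTCCC, the interferon regulatory factor core AANNGAAA and the X2-type motif TGACG, which do not overlap in these windows. The H2-K1 window is chr17:34000348-34000597 on the minus strand, that of H2-Q7 is chr17:35438905-35439154 on the plus strand, and that of B2m is chr2:122147437-122147686 on the plus strand, each written 5′ to 3′.
H2-K1: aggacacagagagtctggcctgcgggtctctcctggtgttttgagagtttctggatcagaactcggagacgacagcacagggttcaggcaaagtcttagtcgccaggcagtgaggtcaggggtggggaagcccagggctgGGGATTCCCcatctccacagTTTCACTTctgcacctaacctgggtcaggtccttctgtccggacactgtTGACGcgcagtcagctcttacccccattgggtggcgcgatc
H2-Q7: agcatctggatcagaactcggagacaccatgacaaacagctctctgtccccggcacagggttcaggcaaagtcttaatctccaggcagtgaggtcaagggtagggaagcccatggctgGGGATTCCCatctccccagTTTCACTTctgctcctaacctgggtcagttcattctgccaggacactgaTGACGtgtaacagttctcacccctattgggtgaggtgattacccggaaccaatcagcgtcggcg
B2m: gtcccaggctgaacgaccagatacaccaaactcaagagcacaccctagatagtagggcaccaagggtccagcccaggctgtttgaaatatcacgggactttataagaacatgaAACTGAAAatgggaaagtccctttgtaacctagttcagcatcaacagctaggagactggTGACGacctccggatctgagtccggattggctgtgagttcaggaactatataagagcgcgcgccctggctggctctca

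The stretch from the NF-kB letters to the interferon regulatory factor letters was set side by side for the 3 heavy chains, at chr17:34000430-34000457 (H2-K1), chr17:35262924-35262951 (H2-D1) and chr17:35439023-35439049 (H2-Q7).
H2-K1: GGGATTCCCcatctccacagTTTCACTT
H2-D1: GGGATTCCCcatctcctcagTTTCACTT
H2-Q7: GGGATTCCCatctccccagTTTCACTT

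The stretches of H2-K1 and H2-D1 are 28 bases long and differ by A17T, counted from 1 at the 5′ end with the H2-K1 base first, and that of H2-Q7 is 27 bases long. Over the whole aligned windows, H2-K1 had 66.1% identity with H2-Q7 and 54.8% with H2-D1. The NF-kB letters stood in the windows of 3 of the 9 members, the heavy chains, against 0.302% of 32817 windows of all genes. Only this exact string was sought, so NF-kB sites of other forms, in B2m or in other windows, were not counted. The interferon regulatory factor core stood in 4 of 9 (the heavy chains and B2m, 21.3% of all windows) and TGACG in 6 of 9 (the same 4 with Tap1 and Psmb9, 17.7% of all windows). The windows of Tap1 and Psmb9 overlap on opposite strands, and their TGACG is the same site, counted for both genes. Tapbp, Psmb8 and Psmb10 held none of the 3 in their windows. The RefSeq starts used here differ from the GENCODE starts for some genes. The windows of Tapbp, Psmb8, Psmb9 and H2-D1 lie inside the gene spans given above, and that of Psmb10 does in part. Bases before the GENCODE starts of these genes were not searched as such. A match describes letters only. Transcripts of the heavy chains also resemble each other: 26.4% of the 50-base words of H2-Q7, 12.8% of those of H2-D1 and 9.63% of those of H2-K1 recur in another gene. In the last 500 bases, nearest to what a 3′ library reads, these shares are 0.443%, 9.53% and 0.443%, so counts of the 3 heavy chains, H2-D1 above all, are uncertain to that extent. No source used here names the kit's end.

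The level of each gene was read in 10 cell states, found by clustering both libraries together. The 10 members and the other class I, peptide loading and proteasome genes of the lists were left out of the clustering genes. Genes of the other lists, such as MHC class II and interferon response genes, were not left out. States bear a name where marker genes gave one, and the other 3 are numbered: cluster 4 is led by Dmkn, cluster 9 by Gpnmb and the chemokine genes Ccl4 and Ccl3, and cluster 10 by Mcpt8 and Prss34. Few cells of cluster 10 hold these 2 genes: Mcpt8 had a UMI in 5 of 26 DMSO and 0 of 129 Selinexor cells, and Prss34 in 2 and 0. In a finer clustering 16 of its DMSO and 122 of its Selinexor cells fell into a cluster led by Gm43409 and Tcaf1. The late neutrophil-like state joins clusters 0, 3 and 8, of which cluster 8 is led by stefin genes and rests on 3 markers. Monocyte-like cells numbered 8 in the DMSO library and 335 in the Selinexor library, dendritic cell-like cells 5 and 35, and cluster 4 had 274 and 7, so these 3 states give a level in 1 library only. Levels are in CPM, here per 1000000 UMIs of the state's cells in that library, with exact 95% Poisson intervals, and are compared for 1 gene at a time.

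H2-K1, a classical heavy chain, had its highest level, 699 CPM (619 to 787), in the dendritic cell-like cells of the Selinexor library and its lowest, 93.0 (81.3 to 106), in the intermediate neutrophil-like cells of the same library, a 7.52-fold span. Macrophage-like cells held 355 in DMSO and 332 in Selinexor. The remaining states lay between 106 and 343, and in the order of the 16 state-by-library levels 14 of the 15 neighbouring pairs had overlapping intervals.

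H2-D1, the other classical heavy chain, had another order. It was highest in the late neutrophil-like cells, with 634 CPM (603 to 665) in DMSO and 1023 (966 to 1081) in Selinexor, and in cluster 9, with 851 (694 to 1033) in DMSO and 458 (397 to 526) in Selinexor. Dendritic cell-like cells of the Selinexor library held 600.1 and cluster 4 of the DMSO library 434. Macrophage-like cells held 348 and 286, cycling-like cells 331 and 239.8 (843 and 463 UMIs), and intermediate neutrophil-like cells 268 and 241, in DMSO and Selinexor. Early neutrophil-like cells were at the bottom with 214 and 149. Along the neutrophil-like states the level was thus lowest in early and highest in late cells in both libraries, with intervals that did not overlap between intermediate and late cells.

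H2-Q7, a non-classical heavy chain, came mostly from 1 state in the Selinexor library. Of its 52 UMIs in the Selinexor library, 38 lay in the 35 dendritic cell-like cells, where it stood at 96.6 CPM (68.4 to 133). The other state-by-library sums of at least 30 cells reached at most 6.39 CPM, and in the DMSO library its 26 UMIs were spread, with 7 in macrophage-like cells, 5 in cluster 10 and 3 in dendritic cell-like cells. It had 0 UMIs in 7 of the 16 sums, among them the 335 monocyte-like cells of the Selinexor library and cluster 4 of the DMSO library, which allows up to 0.739 and 1.08 CPM by a floor of 3 counts.

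B2m, the light chain that every class I heavy chain needs, was highest in dendritic cell-like cells (1325 CPM, 1213 to 1444), in late neutrophil-like cells of the Selinexor library (1055) and in cluster 9 of the DMSO library (1042). Its lowest levels were 340.0 and 358 in early neutrophil-like cells of DMSO and Selinexor, and its span of 3.90-fold was the narrowest of the 9 genes with counts in every state. Macrophage-like cells held 896 in DMSO and 713 in Selinexor and monocyte-like cells 725 in Selinexor.

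Tap1, a subunit of the peptide transporter, had 130 CPM (96.6 to 171) in dendritic cell-like cells, 51.7 and 57.3 in macrophage-like cells of DMSO and Selinexor, and 8.52 (2.32 to 21.8) at the bottom, in early neutrophil-like cells of Selinexor. Tap2, its partner subunit, was instead highest in macrophage-like cells of the Selinexor library with 84.2 (62.5 to 111). All 15 neighbouring pairs in the order of Tap2 overlapped, so only states far apart in that order can be told from each other. Tapbp was highest in late neutrophil-like cells of the Selinexor library (216, 191 to 244) and dendritic cell-like cells (201), and lowest in early neutrophil-like cells of DMSO (38.7, 27.9 to 52.3).

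The immunoproteasome subunits followed a different order from H2-D1, B2m and Tapbp. Psmb8, the inducible chymotrypsin-like subunit, had 539 CPM (469 to 617) in dendritic cell-like cells, 371 and 323 in macrophage-like cells of DMSO and Selinexor, and 318 in cluster 4 of DMSO. Its lowest levels were 70.4 and 55.6 in intermediate neutrophil-like cells and 50.0 and 61.6 in cluster 9, of DMSO and Selinexor. Psmb9, which takes the place of the caspase-like subunit Psmb6, had 170 (132 to 216) in dendritic cell-like cells. It had 97.2 and 74.1 in macrophage-like cells, and 29.8 and 20.6 in intermediate neutrophil-like cells. Psmb10, the inducible trypsin-like subunit, ranged from 89.0 in cluster 4 of DMSO to 13.1 and 10.3 in intermediate neutrophil-like cells. In late neutrophil-like cells, where H2-D1 peaked, Psmb8 stood at 172 and 112 and Psmb9 at 55.8 and 43.2.

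**Figure D1:**
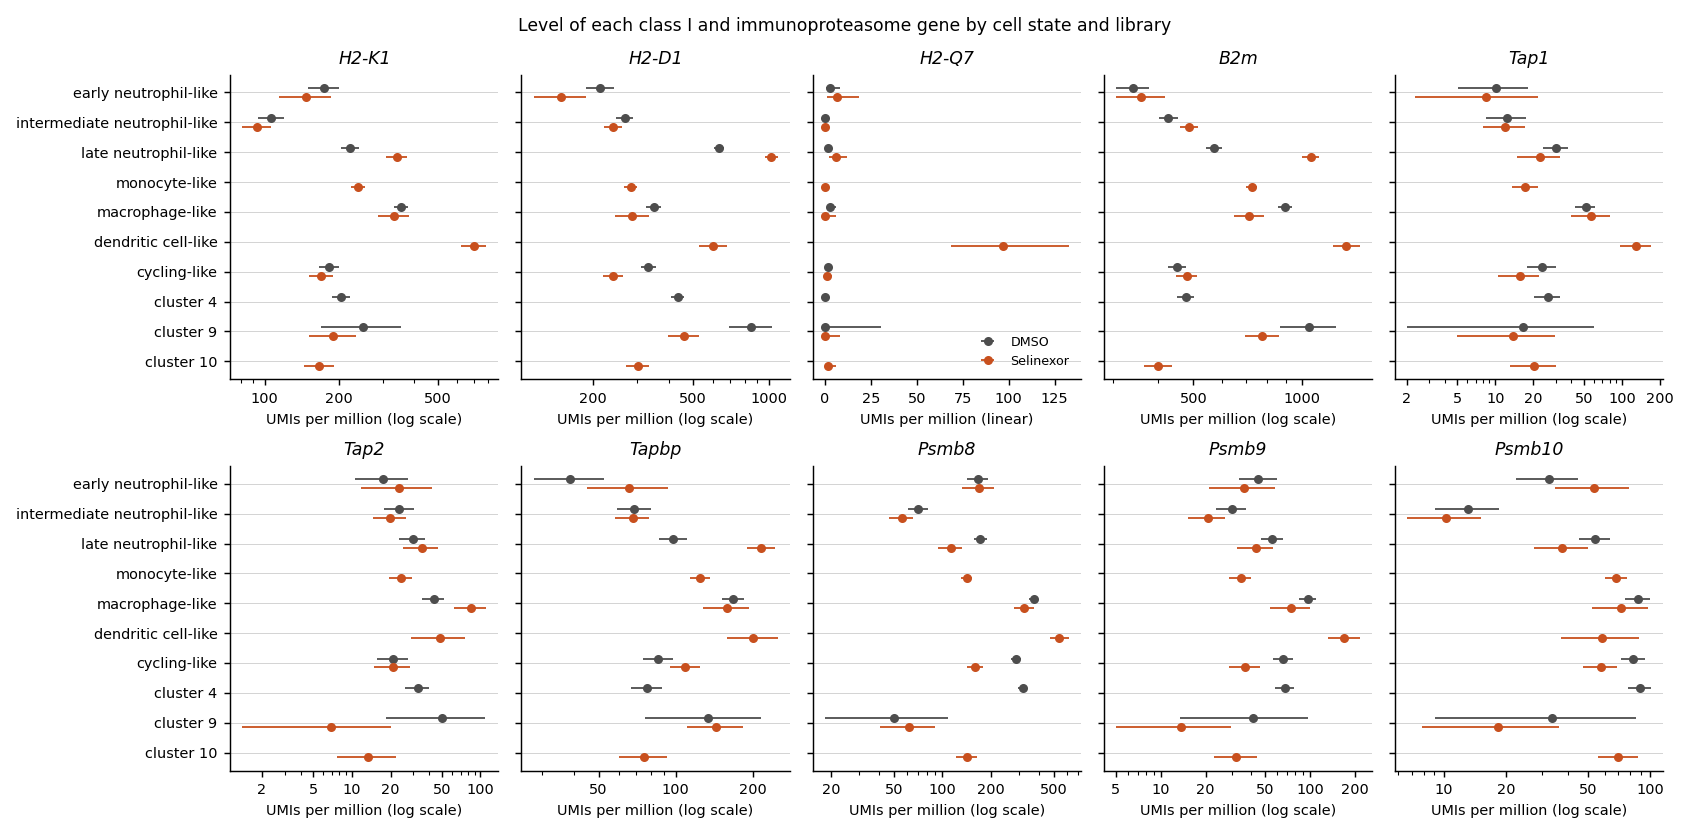
Level of each gene (x axis, CPM, log scale except for H2-Q7) in 10 cell states (y axis) for DMSO (grey) and Selinexor (orange), with exact 95% Poisson intervals as bars; states with too few cells in a library have no point there. H2-D1 reaches 1023 in late neutrophil-like cells of the Selinexor library, H2-Q7 stands at 96.6 in dendritic cell-like cells, and Psmb8 is at 539 in dendritic cell-like cells and at 55.6 in intermediate neutrophil-like cells of the Selinexor library.

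Across the 21 cluster-by-library sums of at least 30 cells, pairs of members differed widely in how far their levels ran together. As descriptions with no test, over sums that share 2 libraries and their depths, Pearson's r of log2 levels was 0.92 for B2m and Tapbp, 0.88 for Psmb8 and Psmb9, 0.82 for Psmb8 and Psmb10, and 0.84 for H2-K1 and Tap1. The head-to-head neighbours Tap1 and Psmb9 had r = 0.79. H2-K1 ran with members of several roles alike, with r = 0.76 for Tapbp, 0.75 for B2m and 0.74 for Psmb9. H2-D1 and Psmb8 had r = -0.04 and B2m and Psmb8 r = 0.02, so the light chain and the main immunoproteasome subunit showed next to no shared pattern over the states. Among 5182 genes outside the lists, those most like the summed H2-K1, H2-D1 and B2m were Dennd4a (0.94), Relb (0.93), Mcl1 (0.92), Rab11fip1 (0.92) and Snx20 (0.92). Those most like the summed immunoproteasome subunits were Pafah1b3 (0.91), Cst3 (0.90), Nt5c (0.89), Clta (0.88) and Rtraf (0.87).

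The design asks how Selinexor is reflected in these genes. Over all kept cells, the classical heavy chains and the light chain differed by less than 1.5-fold between the libraries, 2 immunoproteasome subunits were lower in the Selinexor library, and the sparse heavy chain H2-Q7 was higher. Ratios are differences of log2(CPM + 1), Selinexor minus DMSO, which understates the ratio of low genes, and their exact conditional intervals are for the ratio without the added 1. A gene is counted as called when it was at least 1.5-fold higher or lower, with no test behind it. By this rule 2 of the 10 members, Psmb8 and Psmb9, were lower (3.86% of 10387 genes) and 1, H2-Q7, was higher (9.82% of them). The median ratio of the members was -0.17 and 6 of 10 lay below 0, against a median of 0.13 and 36% below 0 over all genes.

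Psmb8 had 3400 UMIs (239 CPM) in the DMSO library and 1849 (145 CPM) in the Selinexor library, a log2 ratio of -0.72 (-0.81 to -0.64), that is 1.65-fold lower in Selinexor. Psmb9 had 880 and 485 UMIs (61.9 and 38.0 CPM), a ratio of -0.69 (-0.87 to -0.54). Psmb10 had 894 and 646 UMIs (62.9 and 50.6 CPM) and a smaller ratio of -0.31 (-0.46 to -0.17). All 3 inducible subunits were therefore lower in the Selinexor library, and the levels of the libraries did not overlap within counting error for any of them.

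H2-K1 had 3009 and 2761 UMIs (212 and 216 CPM), a ratio of 0.03 (-0.05 to 0.10), so no difference was detectable at this depth. H2-D1 had 5619 and 4484 UMIs (395 and 351 CPM), a ratio of -0.17 (-0.23 to -0.11). B2m had 7833 and 8278 UMIs (551 and 648 CPM), a ratio of 0.23 (0.19 to 0.28). The 2 heavy chains and the light chain thus did not share 1 direction.

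Tap1 had 388 and 275 UMIs, a ratio of -0.33 (-0.57 to -0.12), and Tap2 411 and 327, a ratio of -0.17 (-0.39 to 0.04). Tapbp had 1349 and 1502 UMIs (94.9 and 118 CPM), a ratio of 0.31 (0.20 to 0.42), so tapasin was higher in Selinexor beside a lower Tap1. H2-Q7 had 26 and 52 UMIs (1.83 and 4.07 CPM), a ratio of 0.84 (0.45 to 1.89). Without the dendritic cell-like cells it had 23 and 14 UMIs and a ratio of -0.30, so its higher count rested on that 1 state.

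The cell mix of the libraries differs and moves with these pooled ratios. Monocyte-like cells made up 0.459% of the DMSO and 17.1% of the Selinexor cells, cluster 4 made up 15.7% and 0.357%, and macrophage-like cells 11.4% and 2.497%. They are also where the UMIs come from: 26.0% of the Psmb8 UMIs of the DMSO library lay in cluster 4, while 31.1% of those of the Selinexor library lay in monocyte-like cells. With both libraries given the same mix over the states with at least 30 cells in each, Psmb8 had a ratio of -0.48 and Psmb9 of -0.47, so neither reached 1.5-fold. Under that mix H2-D1 stood at 0.37, H2-K1 at 0.31, B2m at 0.47 and Tapbp at 0.70. H2-D1 thus turned above 0 under that mix, as it did, at 0.31, with the mix left as it is and every cell weighted equally. The states given the same mix included late neutrophil-like cells, 35.7% of DMSO and 41.3% of Selinexor cells, whose median UMIs differed 2.48-fold. Their cluster 8 held 201 DMSO and 26 Selinexor cells, and the mix of clusters within a state was not made the same. The signs of Psmb8, Psmb9, Psmb10, Tap1, B2m and Tapbp held under all 11 alternatives run over all kept cells.

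Scaling matters as well, since over all genes 71.8% of the 1.5-fold calls were higher in Selinexor with totals, 49.3% with TMM scaling and 46.2% with median-of-ratios scaling. TMM moved the median of all genes from 0.13 to 0.00. Relative to it, Psmb8 stood at -0.85 with TMM, H2-D1 at -0.31, B2m at 0.10 and H2-K1 at -0.10.

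Selinexor and DMSO were then compared within states of like depth, those with at least 30 cells in each library and median UMIs within 2-fold, for members with at least 20 UMIs there. The 5 states that qualified gave 40 ratios, of which 28 lay below 0, 3 were at least 1.5-fold lower and 3 at least 1.5-fold higher, with a median of -0.19. Over the 35299 ratios of all genes measured in these states, 49.0% lay below 0, 12.1% were at least 1.5-fold lower and 13.2% higher, beside 70.0%, 7.5% and 7.5% for the members, so their share of 1.5-fold calls was not above that of all genes. Psmb9 was below 0 in 4 of 4 states, H2-D1 and H2-K1 in 5 of 5, and Tapbp above 0 in 3 of 5. The interval lay below 0 for H2-D1 in 4 of 5 states, for Psmb9 and Psmb8 in 2 each, and for H2-K1 in none.

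The cycling-like state (165 DMSO and 108 Selinexor cells, median 15451 and 17396 UMIs) held the lowest immunoproteasome ratios of the 5 states. There Psmb8 had 738 and 308 UMIs (290.1 and 160 CPM), a ratio of -0.86 (-1.06 to -0.67), and Psmb9 169 and 71 UMIs (66.4 and 36.8 CPM), a ratio of -0.84 (-1.27 to -0.44). These were the 2 of 9 members called lower (6.21% of 8972 genes) and 0 were called higher (17.7%). Psmb10 had -0.51 (-0.87 to -0.18) and H2-D1 -0.46 (-0.63 to -0.30), while Tapbp had 0.35 (0.08 to 0.64) and B2m 0.09 (-0.04 to 0.22). In a finer clustering this state split into 1 cluster with 45 DMSO and 108 Selinexor cells and 1 with 123 and 1. In the shared cluster Psmb8 stood at -0.64 (-0.92 to -0.35), Psmb9 at -0.78 (-1.37 to -0.20) and Tap1, with 25 and 29 UMIs, at -1.35 (-2.23 to -0.58). The lower Psmb8 and Psmb9 were thus also found in the cycling-like cells that both libraries hold, whereas Tapbp had -0.13 (-0.52 to 0.27) there.

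Intermediate neutrophil-like cells (323 and 327 cells, median 7035 and 6525 UMIs) had the most even cell numbers of the 5 states. Of 9 members, 0 were called lower (7.88% of 8444 genes) and 0 higher (7.84%). Psmb8 had 177 and 135 UMIs and a ratio of -0.34 (-0.68 to -0.01), and Psmb9 75 and 50 UMIs and a ratio of -0.52 (-1.08 to -0.0012). B2m had 1071 and 1183 UMIs and was higher by 0.19 (0.07 to 0.31). H2-D1 had -0.15 (-0.32 to 0.01), and Tapbp, Tap1, Tap2, Psmb10 and H2-K1 had intervals that include 0. Of its 2 clusters, cluster 1 held the larger ratios, with Psmb9 at -1.13 from 26 and 12 UMIs and B2m at 0.32. Psmb8 stood there at -0.60 (-1.25 to 0.004), with an interval that includes 0. In cluster 1, 2 of 8 members were called lower (11.6% of genes) and 0 higher (12.7%). In cluster 6 the 9 ratios lay between -0.23 and 0.13 (0 lower against 9.6% of genes, 0 higher against 8.6%).

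Macrophage-like cells (199 and 49 cells) held 1 member called higher and 0 lower of 9 (12.3% and 16.8% of 8504 genes). This was Tap2, with 103 and 50 UMIs (43.3 and 84.2 CPM) and a ratio of 0.94 (0.44 to 1.46). B2m had a ratio of -0.33 (-0.48 to -0.18) there, and H2-D1 of -0.28 (-0.53 to -0.04). Psmb8 had -0.20 (-0.43 to 0.03) and Psmb9 -0.39 (-0.89 to 0.08). The finer clustering left 1 cluster with 94 DMSO and 48 Selinexor cells, in which Psmb8 stood at -0.57 (-0.81 to -0.33), Psmb9 at -0.77 (-1.30 to -0.29), Tap2 at 0.64 (0.09 to 1.21) and B2m at -0.13 (-0.30 to 0.03). In the macrophage-like cluster that both libraries hold, Psmb8 and Psmb9 were thus lower in Selinexor, with intervals below 0.

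Early neutrophil-like cells (74 and 31 cells) had 2 of 8 members called higher (10.2% of 5947 genes) and 0 lower (15.8%). Tapbp had 42 and 31 UMIs and a ratio of 0.76 (0.05 to 1.48), and Psmb10 had 35 and 25 UMIs and a ratio of 0.71 (-0.08 to 1.51), the latter with an interval that includes 0. Psmb8, with 181 and 79 UMIs, stood at 0.01 (-0.39 to 0.40), so its lower level was not seen in this state. It stood at 0.02 (-0.30 to 0.34) in the early neutrophil-like cluster of the finer clustering (112 and 55 cells). H2-D1 had 232 and 70 UMIs and a ratio of -0.52 (-0.93 to -0.13). In cluster 9 (46 and 130 cells, median 1579 and 2248 UMIs), H2-D1 had 102 and 201 UMIs and a ratio of -0.89 (-1.24 to -0.53), the 1 member of 5 called lower (20.3% of 3432 genes) beside 0 higher (21.8%), and B2m had -0.43 (-0.73 to -0.12). These 2 directions depended on the clustering. The finer clustering put 38 DMSO and 56 Selinexor cells of cluster 9 in a cluster led by the same chemokine genes (47 and 77 cells in all) and 8 and 73 in another with too few DMSO cells to compare. In the former H2-D1, with 107 and 112 UMIs, stood at 0.66 (0.27 to 1.06), B2m at 0.58 (0.16 to 1.00), H2-K1 at 1.06 (0.33 to 1.80), Tapbp at 1.53 (0.52 to 2.63) and Psmb8, with 8 and 15 UMIs, at 1.49 (0.17 to 2.95).

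Late neutrophil-like cells, with median UMIs of 2794.5 and 1126, did not meet the depth rule as a whole, but their largest cluster did (cluster 0, 332 and 587 cells, median 1309 and 1018 UMIs). In it the heavy chains ran the other way from the 5 states above. H2-D1 had 549 and 781 UMIs (866 and 1250.0 CPM) and a ratio of 0.53 (0.37 to 0.69), and H2-K1 had 199 and 294 UMIs and a ratio of 0.58 (0.32 to 0.85). Tapbp had 85 and 162 UMIs and a ratio of 0.95 (0.56 to 1.35), and B2m had 0.31 (0.15 to 0.47). Tapbp and Tap2 were called higher, 2 of 9 members against 22.6% of 5878 genes, and Psmb10 was called lower (11.2%). The intervals of Tap2, from 12 and 24 UMIs (-0.04 to 2.15), and of Psmb10 (-1.40 to 0.05) include 0. The DMSO cells of this cluster held 633684 UMIs and the more numerous Selinexor cells 624804, so a Selinexor cell had less RNA counted: H2-D1 came to 1.65 UMIs per DMSO cell and 1.33 per Selinexor cell, and B2m to 1.75 and 1.21. The higher share of H2-D1 among the transcripts of these cells thus stood beside a lower count per cell, and the part of depth in it was not tested. In the finer clustering, shallow late neutrophil-like cells formed 1 cluster with 41 DMSO and 570 Selinexor cells and 1 with 302 and 60. There H2-D1 stood at 0.22 (-0.17 to 0.64) and 0.45 (0.08 to 0.79), and H2-K1 at 0.33 (-0.32 to 1.06) and 0.002 (-0.72 to 0.65). Tapbp had 0.50 (-0.42 to 1.58) and 0.28 (-0.72 to 1.16), and B2m -0.34 (-0.67 to 0.01) and 0.47 (0.12 to 0.81). Higher H2-K1 and Tapbp were thus not detectable in either, and B2m differed in sign.

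Monocyte-like cells could be compared only when the clustering was centred within each library, which put 141 DMSO and 332 Selinexor cells in that state. There Psmb8 had 419 and 560 UMIs and a ratio of -0.94 (-1.13 to -0.76), Psmb9 94 and 134 and a ratio of -0.83 (-1.24 to -0.46), and Psmb10 158 and 274 and a ratio of -0.56 (-0.86 to -0.28). Tap1 stood at -0.65 (-1.25 to -0.10), Tap2 at -0.62 (-1.13 to -0.14), H2-D1 at -0.38 and H2-K1 at -0.34. Most DMSO cells of this state lay outside the monocyte-like state of the uncentred clustering, which held 8 of them.

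**Figure D2:**
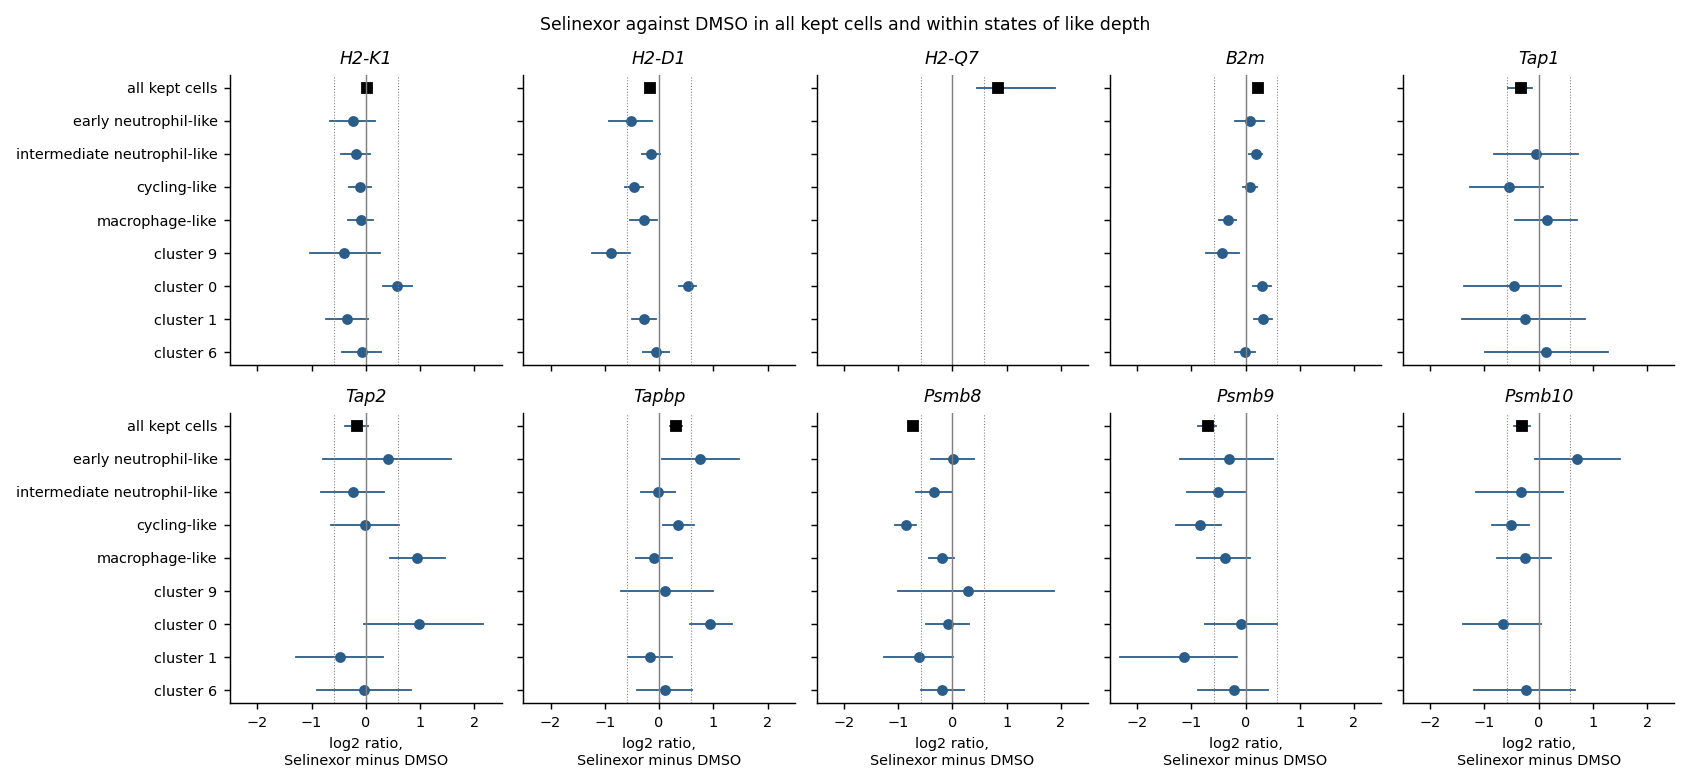
Log2 ratio of each gene (x axis, Selinexor minus DMSO) over all kept cells (black square) and within states or single clusters of like depth (blue points), with exact 95% conditional intervals as bars and 1.5-fold limits as dotted lines; a state is blank where the gene had under 20 UMIs. Psmb9 lies below 0 in every state shown, H2-D1 lies below 0 in all but cluster 0, where it is at 0.53, and Tapbp reaches 0.95 in cluster 0.

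Depth was also held by comparing cells of like UMI number, whatever their state. For cells of 10000 UMIs or more (636 DMSO and 588 Selinexor cells), Psmb8 had a ratio of -0.72 (-0.82 to -0.63) and Psmb9 of -0.68 (-0.89 to -0.50). For cells of 5000 to under 10000 UMIs, Psmb8 had -0.98 and Psmb9 -0.85, and for 2000 to under 5000 UMIs -0.92 and -1.24. In the 314 and 783 cells under 2000 UMIs, Psmb8 had 56 and 122 UMIs and a ratio of -0.08 (-0.55 to 0.40) and Psmb9 -0.52 (-1.26 to 0.22). The lower Psmb8 was therefore seen in cells with ample RNA and not detectable in the shallowest. H2-D1 stood at -0.33, -0.41 and -0.35 in the same 3 ranges from the deepest down and at 0.05 (-0.11 to 0.22) under 2000 UMIs, and B2m at 0.11, 0.32, 0.40 and 0.11 (-0.06 to 0.27).

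Each inducible subunit was next set against the constitutive subunit whose place it takes. This share of the pair's UMIs does not depend on the scaling of the libraries, and it is compared between libraries and states, not between pairs. Psmb8 made up 45.2% of Psmb8 and Psmb5 UMIs in the DMSO library (exact Clopper-Pearson interval 44.0 to 46.3) and 39.7% (38.3 to 41.1) in the Selinexor library. Psmb9 made up 20.2% (19.01 to 21.4) and 16.2% (14.9 to 17.5) of the pair with Psmb6, and Psmb10 38.4% (36.4 to 40.4) and 36.3% (34.0 to 38.5) of that with Psmb7. For the first 2 pairs the intervals of the libraries did not overlap, and for Psmb10 they did.

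In cycling-like cells the Psmb8 share was 46.8% (44.3 to 49.3) in DMSO and 38.5% (35.1 to 42.0) in Selinexor, and the Psmb9 share 18.2% (15.7 to 20.8) and 12.8% (10.2 to 15.9). In the other states with both libraries the intervals overlapped: the Psmb8 share was 25.2% and 24.1% in intermediate neutrophil-like cells, 28.1% and 32.2% in early ones, 38.2% and 35.5% in late ones and 62.5% and 61.1% in macrophage-like cells. In cluster 9 it went the other way, from 6 and 27 Psmb8 UMIs, with 11.5% (4.35 to 23.4) in DMSO and 23.3% (15.9 to 32.0) in Selinexor. A lower share of Psmb8 and of Psmb9 was thus seen in cycling-like cells and over all cells. In intermediate neutrophil-like cells the Psmb8 share differed within counting error although Psmb8 itself stood at -0.34. The share was not computed in the finer cycling-like cluster that both libraries hold. The cell mix differs between the libraries, and its part in the share over all cells was not tested. States differed far more than libraries. Dendritic cell-like cells of the Selinexor library had a Psmb8 share of 83.8% (78.7 to 88.1) and a Psmb9 share of 54.5% (45.2 to 63.5), against 12.5% for Psmb9 in monocyte-like cells of the same library.

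**Figure D3:**
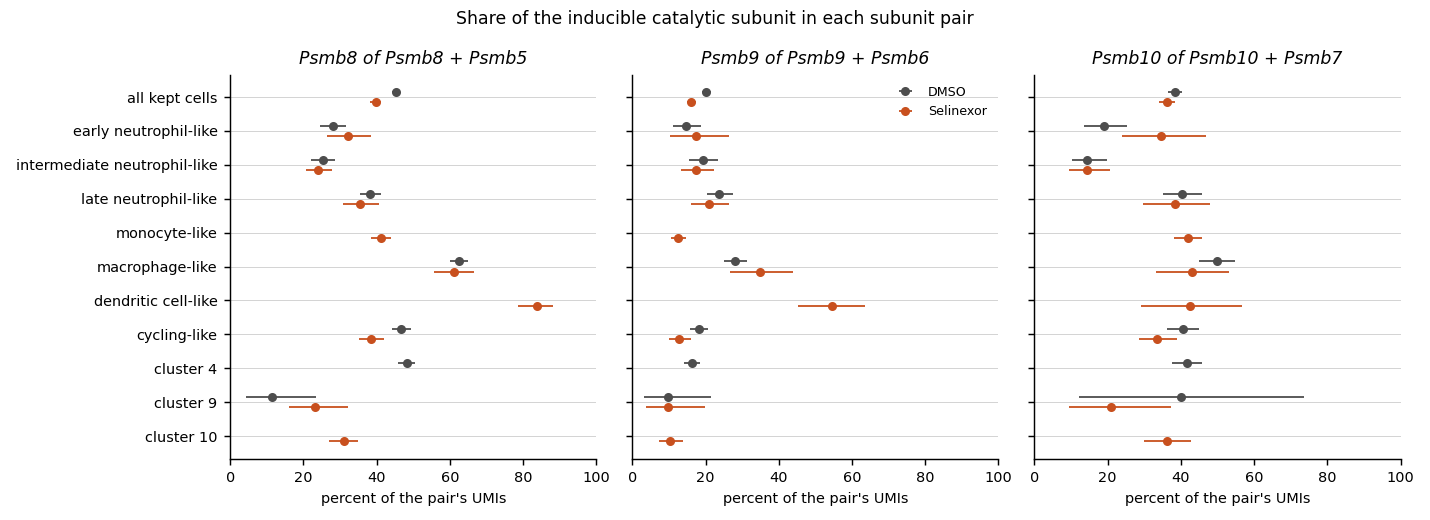
Share of Psmb8, Psmb9 and Psmb10 in the UMIs of each pair with its constitutive counterpart (x axis, percent) over all kept cells and in 10 cell states (y axis), for DMSO (grey) and Selinexor (orange), with exact 95% binomial intervals as bars. The Psmb8 share runs from 83.8% in dendritic cell-like cells in the Selinexor library to 11.5% in cluster 9 of the DMSO library, and in cycling-like cells it is 46.8% in DMSO and 38.5% in Selinexor.

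Genes that work with the members were read from lists over all kept cells, each list beside the median of 0.13 over all genes and the 3.86% and 9.82% of them called lower and higher. The remaining proteasome was lower by small amounts: all 3 constitutive catalytic subunits lay below 0 (Psmb5 -0.40, Psmb6 -0.31, Psmb7 -0.18), as did 10 of 11 other 20S core genes (median -0.29) and 19 of 21 genes of the 19S cap (median -0.14). None of these was called in either direction. Among the core genes Psma5 had -0.45 and Psmb2 -0.43, and of the cap Adrm1 had -0.44 and Psmd7 -0.40. Of 10 activators and assembly factors 7 lay below 0: the interferon-inducible activator subunits Psme1 and Psme2 stood at -0.20 and -0.19 and the assembly factor Pomp at -0.30, whereas the activator Psme4 stood at 0.52. Psmb8 and Psmb9 therefore lay below every listed proteasome gene outside the members.

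Of 10 measured genes of peptide loading and trimming, 1 was called higher, Lnpep (0.81), an aminopeptidase of endosomes, and 0 lower. The chaperone Canx (0.40) and the trimming peptidase Erap1 (0.41) were higher, while the loading complex partners Calr (-0.26) and Pdia3 (-0.29) and the tapasin homologue Tapbpl (-0.32) were lower. Of 7 other measured class I genes, 1 was called higher, the lipid-presenting Cd1d1 (55 and 109 UMIs, 0.97), and 0 lower, with H2-M3 at -0.44, H2-T23 at -0.18 and H2-T22 at -0.05. Among 6 measured genes of a list of class I receptors of myeloid cells and related receptors, 1 was called lower, Pira2 (-0.65). In the same list 1 was called higher, Klra2 (0.61, from 36 and 56 UMIs), and the inhibitory Pirb stood at 0.14 (0.04 to 0.24). Not every receptor of this list need bind class I.

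The regulators of class I genes, as a list, lay close to all genes. Of 28 measured, 10 lay below 0, beside 36% of all genes, 3 were called higher, beside 9.82%, and 0 lower, with a median of 0.18. The 3 were Irf8 (552 and 1178 UMIs, 1.23), Stat3 (0.69) and Nfkb1 (0.59), beside Rel at 0.57. Nlrc5, the transactivator of class I genes, had 41 and 36 UMIs and a ratio of -0.02 (-0.72 to 0.65), too few to show a difference. Irf1 stood at -0.02 (-0.33 to 0.28), so no difference was detectable at this depth for this mediator of the interferon-gamma response.

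Of 16 measured genes of the type I interferon response, 16 lay below 0 and 9 were called lower (median -0.90), among them Isg15 (156 and 28 UMIs, -1.91), Rtp4 (-1.85), Irf7 (-1.79) and Oas3 (-1.70). Of 9 genes induced by interferon-gamma, 0 were called lower and 2 higher, Gbp2 (0.64) and Icam1 (0.62), with Gbp3 at 0.40, Cxcl10 at -0.40 and a median of 0.16. All 8 measured MHC class II genes lay below 0 (median -0.47) and 2 were called lower, H2-Oa (-0.97) and H2-Ab1 (-0.66). The ratios of Psmb8 and Psmb9 lay between the medians of the type I interferon and MHC class II lists, and those of H2-K1, H2-D1 and B2m above both. The share of macrophage-like and dendritic cell-like cells differs between the libraries as given above, and its part in the list values was not tested. With clustering centred per library, a late neutrophil-like cluster with Isg15, Irf7 and Rtp4 among its leading genes held 39 DMSO and 6 Selinexor cells. The part of these cells in the type I interferon values was not tested either.

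**Figure D4:**
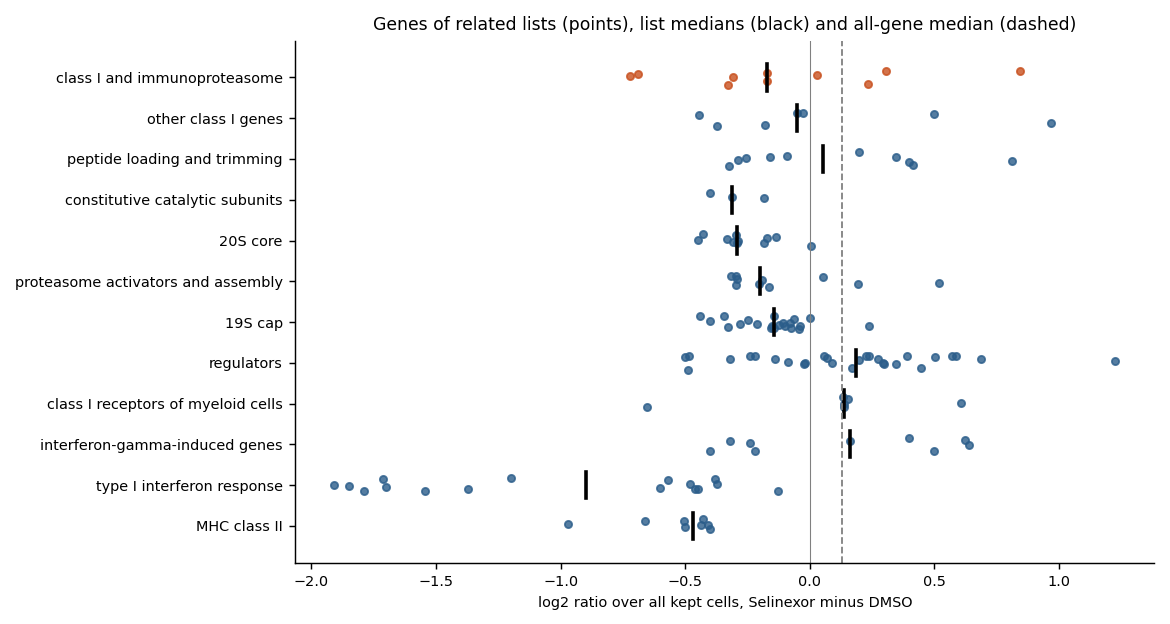
Log2 ratio over all kept cells (x axis, Selinexor minus DMSO) of each measured gene of the 12 lists (y axis; points, jittered vertically), with the list median as a black bar and the median of all genes, 0.13, as a dashed line. Psmb8 and Psmb9 are the 2 lowest of the 10 orange points, the 20S core and 19S cap lie mostly below 0, and the type I interferon list has a median of -0.90.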

How the data were processed

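Single-cell RNA was measured in 2 libraries, 1 per group. Values are raw UMI counts per gene and cell, which the authors made with Cell Ranger 6.1.2 against mm10, per the submitters' processing notes, and deposited unnormalised. No source used here names the annotation release, strand setting or barcode calling. Tag counts were kept apart. No column of other samples was present.

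Kept cells had 200 genes or more and mitochondrial UMIs below 10%. Scrublet marked 1 and 5 cells, which leaves doublets practically untreated. Cells were clustered together (scanpy 1.11.5, 2000 variable genes, 30 components, 15 neighbours, Leiden resolution 1.0, leidenalg 0.10.2). The members and the lists of other class I, peptide loading and proteasome genes were left out of the clustering genes, and the remaining lists were not. A cluster took a class when at least 3 markers were 2-fold higher, their mean ratio was above 0 and its 10 leading genes held no more markers of another class; this scoring was set after the data were seen, and names rebuilt in this way may differ from the study's.

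Counts were summed per library and state and scaled to CPM (pseudocount 1). With 1 library per group no test was run. Depth was 14209188 and 12771314 UMIs; intervals (95%) cover counting error only. edgeR 4.0.16 (R 4.3.3) gave TMM factors only. Ratios and intervals were tested on library sums simulated with Poisson counts, the model that the intervals assume. That simulation held no further spread between cells or libraries, so it cannot tell how the intervals fare with such spread.

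The members and lists were chosen with earlier results of these data known. Named are all members, partners by role, up to 4 genes per list with at least 100 UMIs and the largest absolute ratio, and the 5 genes most like the class I chains and the 5 most like the immunoproteasome subunits among genes with at least 500 UMIs. The genes H2-T10, H2-Bl, Nrdc and Mx1 of the lists did not match a symbol. Other markers used only for naming summed, in DMSO and Selinexor CPM, to 586.7 and 476 (macrophage), 1855 and 1606 (dendritic cell), 38.1 and 14.0 (basophil and mast), 12.7 and 37.0 (eosinophil), 0.915 and 0.626 (megakaryocyte), 8.87 and 24.5 (stem and progenitor) and 4.29 and 5.87 (stromal and endothelial). Alternatives changed the scaling, cell filter, depth, weighting, cell mix, clustering, pseudocount and UMI minimum; those by single cluster and without dendritic cell-like cells were chosen after seeing the data.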

Additional observations from a re-analysis of the deposited data

Results flagged for a closer look

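H2-D1 had a log2 ratio of 0.53 in cluster 0, the largest late neutrophil-like cluster, and of -0.89 in cluster 9, with intervals on opposite sides of 0. It drew attention because the same contrast pointed in opposite directions in these states; the difference was not tested, since each state has 1 library per group. Cluster 0 cells had median UMIs of 1309 in DMSO and 1018 in Selinexor, and those of cluster 9 had 1579 and 2248, so the library with the deeper cells was not the same in both, and the part of depth was not tested. At Leiden resolution 1.5, the cluster led by the same genes as cluster 9 had H2-D1 at 0.66 (0.27 to 1.06), the opposite sign.

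B2m had a ratio of 0.19 in intermediate neutrophil-like cells, 0.32 in their cluster 1 and -0.43 in cluster 9, again with intervals on opposite sides of 0 and a difference that was not tested. In the same finer cluster B2m stood at 0.58 (0.16 to 1.00), so the negative sign in these cells did not hold under that clustering either.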

How the results depend on the processing

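With 1 library per group no result had a replicate check. Over all kept cells the median ratio of the 10 genes was -0.17, and it was -0.32 with median-of-ratios scaling, 0.23 with every cell weighted equally and 0.14 with the same cell mix. The number at least 1.5-fold lower was 2, and 1 and 0 under the last 2 of these. The number at least 1.5-fold higher was 1, H2-Q7, and 0 with cells thinned to 2000 UMIs, without cells holding Mki67 or Top2a, with a minimum of 200 UMIs, with a pseudocount of 5 CPM and without dendritic cell-like cells. In the first 2 of these H2-Q7 fell under 50 UMIs while its ratio was 1.32 and 1.15, with the pseudocount it was 0.41, and without dendritic cell-like cells it turned to -0.30. Within states of like depth, the number of ratios at least 1.5-fold lower was 3 of 40 (12.1% of the ratios of all genes), and, over other states, 14 of 59 with clustering centred per library (11.2%), 5 of 45 at resolution 0.6 (10.5%), 13 of 36 after thinning (17.5%) and 6 of 57 with single clusters (12.3%). The number at least 1.5-fold higher was 3 of 40 (13.2%), and 5 of 41 at resolution 1.5 (13.03%) and 5 of 57 with single clusters (14.6%). The cause was not tested. Psmb8 ranged from -0.98 to -0.48 and stayed past 1.5-fold in 10 of 11 alternatives, Psmb9 from -0.86 to -0.47 (9 of 11), H2-D1 from -0.37 to 0.37, H2-K1 from -0.17 to 0.34 and B2m from 0.08 to 0.47. Depth limits Tap1, Tap2 and H2-Q7 most. No paired analysis was possible because each group has 1 library.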
